A study of Homo sapiens with 9 samples.

Results

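The transcripts described here belong to 52 cell cycle and DNA replication genes, chosen by gene symbol from both deposited tables of read counts, of which 51 had counts in both tables out of 12854 genes that the tables share. NUSAP1 was the remaining gene and was not analysed here. RNA was sequenced from HepG2, a human liver cancer cell line with an epithelial-like form, in 3 groups of 3 libraries. The sh-Con line carried a control short hairpin RNA (shRNA) and is labelled WT. The sh1-TUG1 and sh2-TUG1 lines each carried a different shRNA against TUG1, a long non-coding RNA, and are labelled TUG1 knockdown. All the lines were stable HepG2 lines made with lentivirus, in which doxycycline switches the shRNA on, and each group stands for 1 such line. The hours of induction were not given in the sources used here. TUG1 itself was not analysed here, so the labels could not be checked against it. According to the study's methods the libraries of a group were technical replicates, and the p-values below therefore measure the spread between libraries rather than between independent cultures.

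A dividing cell passes through phases in a fixed order, and each phase uses its own set of genes. In G1, cyclin D with CDK4, and later cyclin E with CDK2, inactivate the RB family and release the E2F transcription factors, which switch on the genes of DNA replication. The MCM helicase is loaded onto origins by CDC6 and CDT1 and is fired in S phase, when ribonucleotide reductase, thymidylate synthase and thymidine kinase supply deoxynucleotides. In G2 and mitosis, cyclins A and B with CDK1, the Polo and Aurora kinases, the kinetochore and the spindle separate the chromosomes. Mitosis genes are held off in G1 by the DREAM complex and switched on by B-MYB and FOXM1, through a promoter element named CHR (cell cycle genes homology region). Many of their promoters also hold an element named CCAAT. In bulk RNA, fewer cells in a phase and less RNA per cell in that phase cannot be told apart.

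Of the 51 members, 22 were grouped as S phase genes, 27 as mitosis genes and 2, CDK4 and CCND1, as G1 kinase genes. Promoter windows from RefSeq (GRCh38.p14, 250 bases before and 50 bases after a start site, first window listed for a gene) matched 39 of the 51. CHR was searched as the letters TTTGAA and also as TTCGAA, and CCAAT as those letters. An E2F-type site was searched as GCGGGAA, as the letters TTGGCGC and as the letters TTCGCGC, and all searches ran on both strands. A CHR match stood in 14 of 20 windows of mitosis members (70%), in 2 of 18 of S phase members (11.1%) and in 16.6% of 27305 windows of all genes. An E2F-type match stood in 12 of 18 windows of S phase members (66.7%), in 4 of 20 of mitosis members (20%) and in 11.2% of all windows. A CCAAT match was common to both, in 16 of 20 mitosis windows (80%) and 12 of 18 S phase windows (66.7%), against 35.7% of all windows. CCAAT on the other strand reads ATTGG and can overlap a TTGGCGC match, since both hold TTGG. These matches describe the letters of the windows and are not binding sites.

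The 100 bases before the start site are shown for 6 members, as examples of the motif content of each phase, chosen among windows that lie outside the GENCODE 29 span of their own gene. The first 4 are mitosis members and the last 2 are S phase members. Capitals mark the matches. CENPF (chr1:214603095-214603194, plus strand) holds 3 CCAAT matches, of which the second reads ATTGG because it lies on the other strand. Its CHR match lies past the start site, at bases 41 to 46. KIF11 (chr10:92593030-92593129, plus strand) holds a CCAAT match followed by a CHR match, both on the other strand. MKI67 (chr10:128126424-128126523, minus strand) holds 2 CHR and 2 CCAAT matches, and its last CHR and CCAAT matches share a base. CDK1 (chr10:60778231-60778330, plus strand) holds an E2F-type match here and its CHR match further upstream, at bases -161 to -156. MCM6 (chr2:135876444-135876543, minus strand) and CDC25A (chr3:48188418-48188517, minus strand) each hold 2 E2F-type matches that overlap on opposite strands. CCAAT matches that read ATTGG stand here too, 2 in MCM6 and 1 in CDC25A. MCM6 also has a CHR match further upstream, at bases -246 to -241.
CENPF: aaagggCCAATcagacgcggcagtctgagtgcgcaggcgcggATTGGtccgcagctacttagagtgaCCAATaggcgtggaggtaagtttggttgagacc
KIF11: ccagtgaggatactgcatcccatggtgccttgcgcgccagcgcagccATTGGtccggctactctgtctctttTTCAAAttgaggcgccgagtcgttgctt
MKI67: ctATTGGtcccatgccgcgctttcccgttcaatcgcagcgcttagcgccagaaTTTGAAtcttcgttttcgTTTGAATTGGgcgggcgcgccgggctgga
CDK1: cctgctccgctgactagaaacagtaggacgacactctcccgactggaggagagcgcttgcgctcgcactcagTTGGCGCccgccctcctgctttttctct
MCM6: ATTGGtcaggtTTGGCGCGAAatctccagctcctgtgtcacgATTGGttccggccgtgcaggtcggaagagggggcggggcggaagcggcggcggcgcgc
CDC25A: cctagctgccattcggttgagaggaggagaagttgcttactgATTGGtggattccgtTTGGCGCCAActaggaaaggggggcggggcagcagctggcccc

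The libraries held 33049003 to 39387125 counts over the shared genes. Levels below are CPM, counts scaled by library size, on a TMM scale common to all 9 libraries, listed in the order of replicates 1, 2 and 3, and they compare libraries for a gene, not genes with each other. Differences are log2 fold changes (log2FC) ± SE from edgeR's quasi-likelihood test. A gene was called where the Benjamini-Hochberg adjusted p over all genes tested was under 0.05, and was a differentially expressed gene (DEG) where the fold change also exceeded 1.5. All 10 hepatocyte markers had counts, with a summed level of 40051 to 41727 CPM in sh-Con, 44562 to 46016 CPM in sh1-TUG1 and 48745 to 51059 CPM in sh2-TUG1. ALB (albumin) was higher in both lines (log2FC 0.45 ± 0.050, adjusted p = 0.000233 and log2FC 0.91 ± 0.049, adjusted p = 1.51e-06), but the markers did not all move with the sum. The test called 5 of the 10 up and 2 down for sh1-TUG1, and 3 up and 5 down for sh2-TUG1. Of 10 markers of immune, endothelial and stromal cells, 4 had counts, and their sum ran from 104 to 120 CPM in sh-Con, 88.4 to 95.9 CPM in sh1-TUG1 and 64.5 to 72.5 CPM in sh2-TUG1. That sum fell with CD68, a macrophage marker (log2FC -0.86 ± 0.080, adjusted p = 8e-05 and log2FC -1.61 ± 0.11, adjusted p = 6.98e-06), whereas VWF, an endothelial marker, was higher in both lines (log2FC 1.40 ± 0.25, adjusted p = 0.00311 and log2FC 1.65 ± 0.26, adjusted p = 0.000777). The other 6, among them the pan-leukocyte gene PTPRC and the collagen genes COL1A1, COL1A2 and COL3A1, were not in the tables used. The part of these shifts in the results below was not tested.

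Most of the called members were lower than in sh-Con in sh2-TUG1 and higher in sh1-TUG1. In sh2-TUG1, 22 of 51 members were called lower and 4 higher than in sh-Con (background: 21.9% of 12953 genes lower and 21.6% higher), and the median log2 fold change over members was -0.48 against -0.0048 over all genes. DEGs were 19 lower members and 1 higher (8.97% and 4.35% of all genes). In sh1-TUG1, 13 members were called higher and 1 lower (background: 12.5% of 13017 genes higher and 12.3% lower), with a median of 0.24 against 0.0027 over all genes, and DEGs were 2 higher members and 1 lower (2.44% and 2.52% of all genes). The lines were also compared with each other, in a fit of all 9 libraries. There, 38 members were lower and 2 higher in sh2-TUG1 than in sh1-TUG1 (background: 21.7% of 12854 genes lower and 21.0% higher), and 30 of the lower and both of the higher ones were DEGs (8.04% and 2.56% of all genes). Both comparisons with sh-Con used the same control libraries, so their values are set side by side and not correlated. The members were chosen with earlier results of these data known, so their shares beside those of all genes are a description and not a test.

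**Figure D1:**
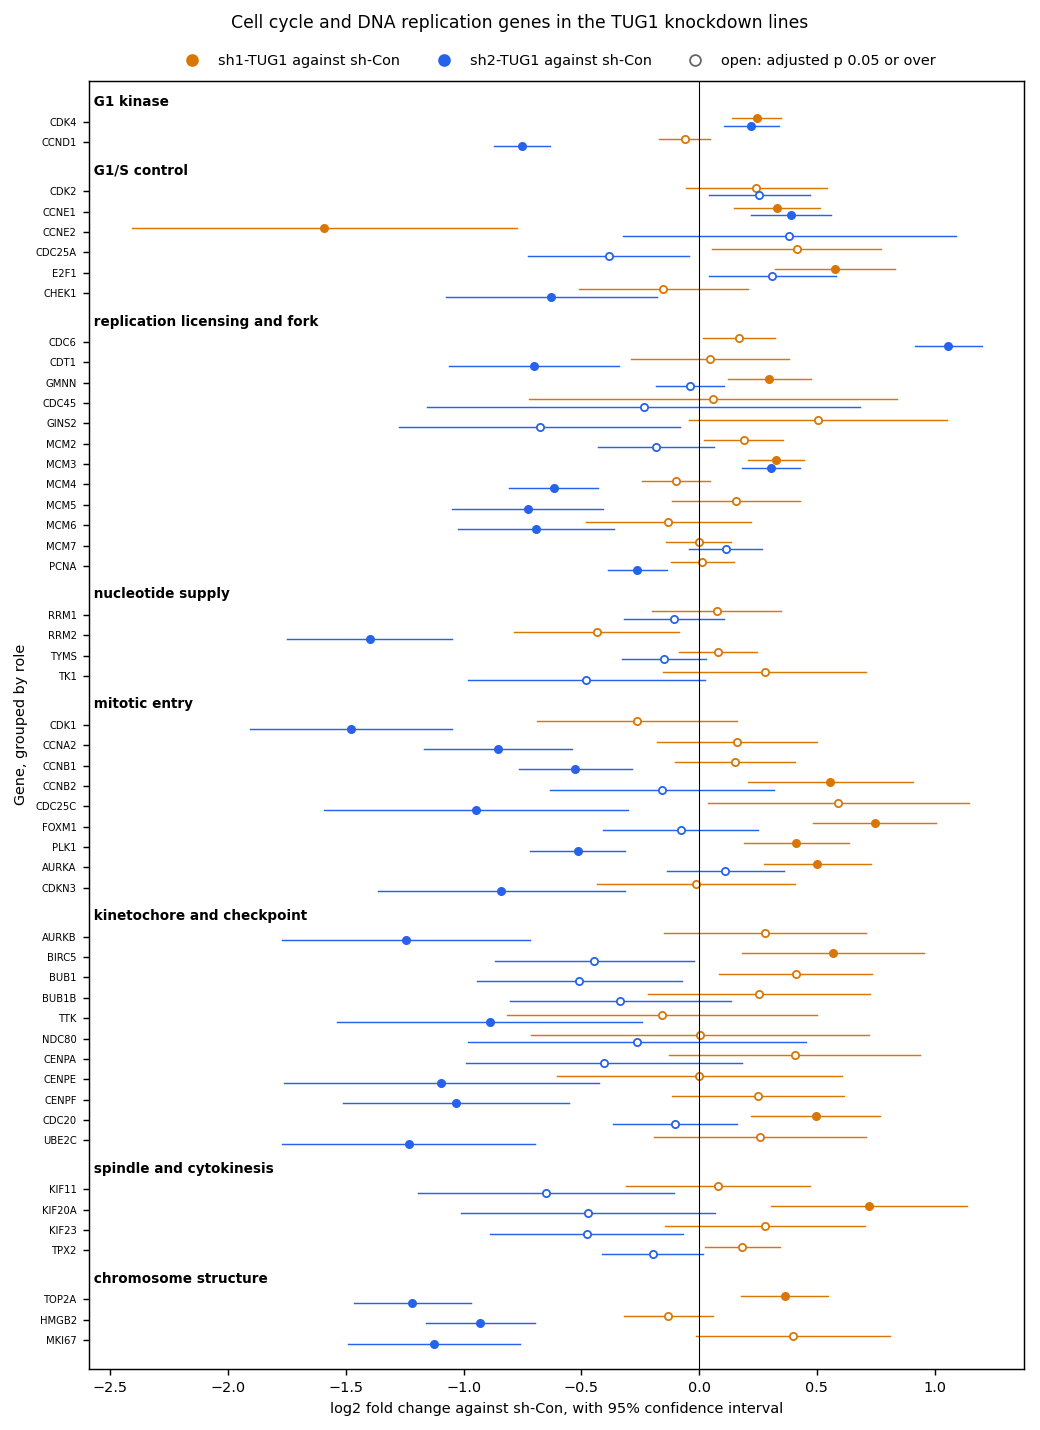
Log2 fold change (x axis) of each of the 51 members (y axis, grouped by role) in sh1-TUG1 (orange) and sh2-TUG1 (blue) against sh-Con, 3 libraries per group. Lines are 95% confidence intervals, filled points have an adjusted p under 0.05 and open points do not. The mitosis groups spread to the left in sh2-TUG1, down to -1.48 for CDK1, and mostly lie to the right of 0 in sh1-TUG1, up to 0.74 for FOXM1.

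The medians of the lines lay further apart for mitosis genes than for S phase genes. Of 27 mitosis members, 14 were lower and 0 higher in sh2-TUG1 than in sh-Con, with a median of -0.53, and 8 were higher and 0 lower in sh1-TUG1, with a median of 0.28. None of them was higher in sh2-TUG1 or lower in sh1-TUG1 at an unadjusted p under 0.05 in edgeR either (0 and 0), and DESeq2 also called 0 and 0. Of 22 S phase members, 7 were lower and 3 higher in sh2-TUG1, with a median of -0.21. In sh1-TUG1, 4 of them were higher and 1 lower, with a median of 0.12. Shares lower in sh2-TUG1 were 51.9% of mitosis and 31.8% of S phase members (21.9% of all genes). Shares higher in sh1-TUG1 were 29.6% and 18.2% (12.5% of all genes). Of S phase members, 13.6% were higher in sh2-TUG1 (21.6% of all genes) and 4.55% lower in sh1-TUG1 (12.3%). Between the lines, 25 of 27 mitosis members and 12 of 22 S phase members were lower in sh2-TUG1, and the medians were -0.82 and -0.31. Those counts are 92.6% and 54.5%, against 21.7% of all genes. All 27 mitosis members had a negative log2 fold change in that comparison, from -1.58 for TOP2A to -0.27 for NDC80. The median over all genes tested there was -0.00067. The S phase and mitosis lists were also chosen with earlier results known, and they were not tested against each other.

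**Figure D2:**
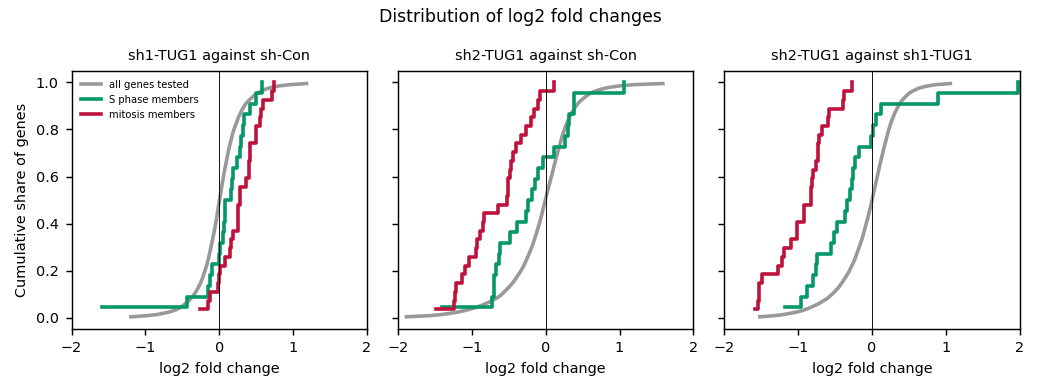
Cumulative share of genes (y axis) at or below each log2 fold change (x axis) for the 22 S phase members (green), the 27 mitosis members (red) and all genes tested (grey), in each comparison. The mitosis curve lies right of the grey one in sh1-TUG1 against sh-Con (median 0.28) and left of it in the comparisons of sh2-TUG1 (medians -0.53 and -0.82), and the S phase curve lies closer to the grey one.

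The same contrast stood within single libraries. The mean log2 CPM of the mitosis members was 2.35, 2.39 and 2.57 in the sh-Con libraries, 2.66, 2.63 and 2.85 in sh1-TUG1 and 1.75, 1.72 and 1.90 in sh2-TUG1, so that the groups did not overlap. The mean of the S phase members was 3.57, 3.49 and 3.59 in sh-Con, 3.54, 3.58 and 3.71 in sh1-TUG1 and 3.28, 3.30 and 3.45 in sh2-TUG1, and here sh1-TUG1 overlapped sh-Con while sh2-TUG1 lay below both. The S phase mean minus the mitosis mean of a library was 1.21, 1.10 and 1.03 in sh-Con, 0.88, 0.95 and 0.86 in sh1-TUG1 and 1.53, 1.59 and 1.55 in sh2-TUG1. Group means of this difference were 1.11 ± 0.093 (SD, n = 3) in sh-Con, 0.89 ± 0.050 in sh1-TUG1 and 1.56 ± 0.027 in sh2-TUG1. After leaving out CCNA2, TOP2A, HMGB2, MKI67, GMNN, CHEK1 and CDK2, which act in more than 1 phase, the means became 1.26, 1.02 and 1.63 in the same order.

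**Figure D3:**
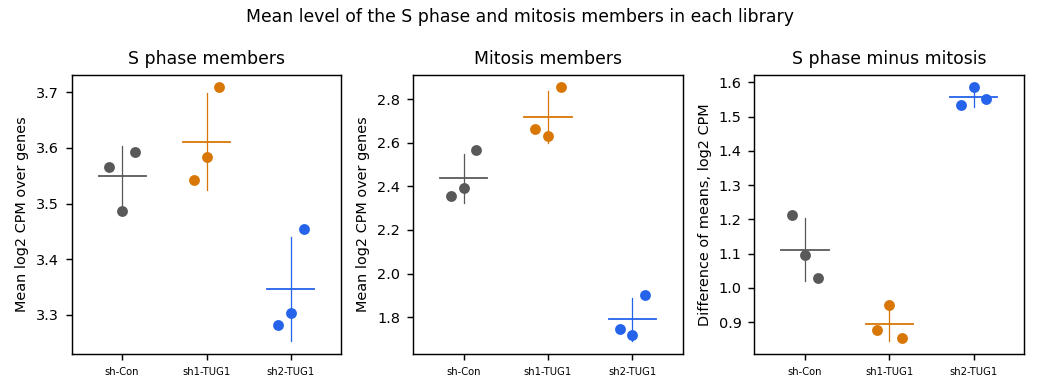
Mean log2 CPM over the 22 S phase members (left), over the 27 mitosis members (middle) and their difference (right) in each of the 9 libraries. Points are libraries, horizontal bars are group means and vertical lines are ± 1 SD (n = 3), and the y axes do not start at 0. In the right panel the sh1-TUG1 libraries (0.86 to 0.95) lie below and the sh2-TUG1 libraries (1.53 to 1.59) above those of sh-Con (1.03 to 1.21).

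Among the G1 kinase genes, CCND1 (cyclin D1, the G1 cyclin that binds CDK4 and CDK6) was at 167, 167 and 182 CPM in the sh-Con libraries, 163, 165 and 165 CPM in those of sh1-TUG1 and 102, 104 and 99.8 CPM in those of sh2-TUG1. All sh2-TUG1 libraries lay below all others, and CCND1 fell by 40.6% there (log2FC -0.75 ± 0.053, adjusted p = 6.98e-06). The change in sh1-TUG1 did not pass the test (log2FC -0.062 ± 0.048, adjusted p = 0.385). CDK4, its kinase partner, had 154, 168 and 156 CPM with sh-Con, 188, 187 and 192 CPM with sh1-TUG1 and 187, 193 and 179 CPM with sh2-TUG1. Both knockdown lines lay above sh-Con without overlap, with a log2FC of 0.24 ± 0.046 (adjusted p = 0.00468) in sh1-TUG1 and a log2FC of 0.22 ± 0.053 (adjusted p = 0.00795) in the other line. The lines themselves differed by a log2FC of -0.020 ± 0.045 (adjusted p = 0.746).

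The G1/S control genes gave 2 higher and 1 lower of 6 members in sh1-TUG1 and 1 higher and 1 lower in sh2-TUG1. That is 33.3% and 16.7% in sh1-TUG1 (12.5% and 12.3% of all genes). In sh2-TUG1 it is 16.7% each way (21.6% of all genes higher and 21.9% lower). CCNE1 (cyclin E1) measured 15.3, 15.1 and 16.2 CPM in the sh-Con libraries, 20.9, 19.9 and 18.01 CPM in those of sh1-TUG1 and 19.3, 20.8 and 21.1 CPM in those of sh2-TUG1. It rose in both lines, with a log2FC of 0.33 ± 0.082 (adjusted p = 0.0161) in sh1-TUG1 and a log2FC of 0.39 ± 0.076 (adjusted p = 0.00286) in the other line. The call in sh1-TUG1 was lost without sh-Con replicate 2 and without sh1-TUG1 replicate 1 or 2 (adjusted p = 0.0513, 0.0685 and 0.0579). CCNE2 (cyclin E2), a scarce transcript of 8 to 96 counts per library, stood at 1.403, 1.72 and 1.07 CPM with sh-Con, 0.234, 0.662 and 0.478 CPM with sh1-TUG1 and 1.78, 1.17 and 2.49 CPM with sh2-TUG1. All sh1-TUG1 libraries lay below the rest (log2FC -1.59 ± 0.36, adjusted p = 0.0114), and the sh2-TUG1 libraries overlapped sh-Con (log2FC 0.38 ± 0.32, adjusted p = 0.357). Between the lines it was the member with the largest rise in sh2-TUG1 (log2FC 1.98 ± 0.38, adjusted p = 0.00152). E2F1, a transcription factor that activates the replication genes, was at 7.63, 7.98 and 9.43 CPM in the sh-Con libraries, 12.3, 11.97 and 13.1 CPM in those of sh1-TUG1 and 11.2, 10.1 and 9.85 CPM in those of sh2-TUG1. It was higher in sh1-TUG1 (log2FC 0.58 ± 0.11, adjusted p = 0.00556). The sh2-TUG1 libraries also lay above sh-Con, but missed the threshold (log2FC 0.31 ± 0.12, adjusted p = 0.062).

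CDC25A, the phosphatase that activates CDK2, had 7.199, 8.46 and 6.24 CPM with sh-Con, 8.52, 8.94 and 11.7 CPM with sh1-TUG1 and 5.32, 5.39 and 6.06 CPM with sh2-TUG1. Neither comparison with sh-Con passed the test (log2FC 0.41 ± 0.16, adjusted p = 0.0899 and log2FC -0.38 ± 0.15, adjusted p = 0.0669). It was lower in sh2-TUG1 than in the sh1-TUG1 line (log2FC -0.80 ± 0.16, adjusted p = 0.00167). CHEK1, the replication checkpoint kinase, measured 5.89, 6.42 and 6.295 CPM in the sh-Con libraries, 6.71, 4.66 and 5.39 CPM in those of sh1-TUG1 and 4.37, 2.87 and 4.79 CPM in those of sh2-TUG1. It was called lower in sh2-TUG1 (log2FC -0.63 ± 0.20, adjusted p = 0.029). The call was lost without sh-Con replicate 2 or 3 or without sh2-TUG1 replicate 1 or 2 (adjusted p from 0.0508 to 0.0774). CDK2 was not called in any comparison, at a log2FC of 0.26 ± 0.10 (adjusted p = 0.0557) in sh2-TUG1.

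Of the 12 genes of replication licensing and the fork, 5 were lower and 2 higher in sh2-TUG1, and 2 were higher and 0 lower in sh1-TUG1 (edgeR, also 0 lower at an unadjusted p under 0.05 and 0 lower with DESeq2). Shares in sh2-TUG1 were 41.7% lower and 16.7% higher (21.9% and 21.6% of all genes). In sh1-TUG1 16.7% were higher (12.5% of all genes higher and 12.3% lower). CDC6, which loads the MCM helicase, stood at 18.5, 18.2 and 19.2 CPM with sh-Con, 20.5, 20.7 and 21.5 CPM with sh1-TUG1 and 38.6, 37.3 and 40.6 CPM with sh2-TUG1. The sh2-TUG1 libraries lay above all others, 2.08-fold above sh-Con (log2FC 1.06 ± 0.063, adjusted p = 2.69e-06). CDC6 was the only member that was a DEG upwards there. Its partner in loading, CDT1, was at 7.596, 6.06 and 6.804 CPM in the sh-Con libraries, 6.36, 6.56 and 8.198 CPM in those of sh1-TUG1 and 3.66, 4.64 and 4.302 CPM in those of sh2-TUG1. CDT1 went the other way in sh2-TUG1, where all libraries lay below the rest (log2FC -0.70 ± 0.16, adjusted p = 0.00656). GMNN (geminin, which inhibits CDT1) was higher in sh1-TUG1 (log2FC 0.30 ± 0.078, adjusted p = 0.0207) and was at a log2FC of -0.038 ± 0.064 (adjusted p = 0.661) in sh2-TUG1. Its call was lost without sh-Con replicate 3 or sh1-TUG1 replicate 3 (adjusted p = 0.0675 and 0.0799).

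The 6 subunits of the MCM helicase, which act as 1 ring, did not move together. MCM4 had 30.2, 31.9 and 32.2 CPM with sh-Con, 27.7, 29.9 and 30.6 CPM with sh1-TUG1 and 20.9, 18.1 and 22.6 CPM with sh2-TUG1. MCM5 measured 8.27, 7.45 and 9.24 CPM in the sh-Con libraries, 8.87, 8.96 and 10.00 CPM in those of sh1-TUG1 and 4.58, 4.999 and 5.49 CPM in those of sh2-TUG1. MCM6 stood at 7.08, 9.34 and 8.89 CPM with sh-Con, 7.23, 6.78 and 9.100 CPM with sh1-TUG1 and 4.86, 5.298 and 5.52 CPM with sh2-TUG1. In sh2-TUG1 MCM4 fell with a log2FC of -0.62 ± 0.085 (adjusted p = 0.000377), MCM5 with a log2FC of -0.73 ± 0.14 (adjusted p = 0.00285) and MCM6 with a log2FC of -0.69 ± 0.15 (adjusted p = 0.00445). These 3 subunits were DEGs in sh2-TUG1, with no overlap between sh2-TUG1 and the other groups, and were not called in sh1-TUG1. MCM3 instead was at 51.95, 50.4 and 52.1 CPM in the sh-Con libraries, 61.9, 66.1 and 65.7 CPM in those of sh1-TUG1 and 60.9, 64.9 and 65.4 CPM in those of sh2-TUG1. It rose in both lines, with a log2FC of 0.33 ± 0.053 (adjusted p = 0.00189) in sh1-TUG1 and a log2FC of 0.31 ± 0.055 (adjusted p = 0.00179) in the other line. MCM2 and MCM7 passed the test in neither comparison with sh-Con, at a log2FC of -0.18 ± 0.11 (adjusted p = 0.208) and a log2FC of 0.11 ± 0.069 (adjusted p = 0.216) in sh2-TUG1. PCNA, the sliding clamp of the DNA polymerases, had 68.9, 74.6 and 73.00 CPM with sh-Con, 74.8, 68.1 and 75.6 CPM with sh1-TUG1 and 59.1, 60.04 and 61.6 CPM with sh2-TUG1. It fell by 16.6% in sh2-TUG1 (log2FC -0.26 ± 0.056, adjusted p = 0.00426), below every library of the other groups. GINS2, a subunit of the active helicase, measured 2.53, 1.75 and 3.295 CPM in the sh-Con libraries, 3.08, 3.83 and 3.85 CPM in those of sh1-TUG1 and 1.54, 1.74 and 1.48 CPM in those of sh2-TUG1. Its sh2-TUG1 libraries lay below all others, and it was lower in sh2-TUG1 than in the sh1-TUG1 line (log2FC -1.18 ± 0.24, adjusted p = 0.00217) and missed the threshold against sh-Con (log2FC -0.68 ± 0.27, adjusted p = 0.0648). CDC45, at 22 to 68 counts per library, was not called in any comparison.

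In nucleotide supply, RRM2, the regulated subunit of ribonucleotide reductase, stood at 12.8, 12.7 and 12.1 CPM with sh-Con, 7.703, 8.19 and 11.9 CPM with sh1-TUG1 and 3.599, 5.54 and 5.11 CPM with sh2-TUG1. Its sh2-TUG1 libraries were the lowest, and those of sh1-TUG1 lay between them and sh-Con. RRM2 fell by 62.1% in sh2-TUG1 (log2FC -1.40 ± 0.16, adjusted p = 0.000111), against a log2FC of -0.44 ± 0.16 (adjusted p = 0.0687) in sh1-TUG1. RRM1, the constant subunit, was at a log2FC of -0.11 ± 0.10 (adjusted p = 0.392) in sh2-TUG1 and did not pass the test. TK1 (thymidine kinase) was at 3.78, 3.08 and 3.22 CPM in the sh-Con libraries, 3.54, 3.695 and 4.96 CPM in those of sh1-TUG1 and 2.49, 1.83 and 2.903 CPM in those of sh2-TUG1, lowest in sh2-TUG1 without overlap. TK1 and TYMS (thymidylate synthase) were not called against sh-Con and were lower in sh2-TUG1 than in the sh1-TUG1 line (log2FC -0.75 ± 0.21, adjusted p = 0.0145 and log2FC -0.23 ± 0.077, adjusted p = 0.0298). Those calls were lost without sh1-TUG1 replicate 3 (adjusted p = 0.075 and 0.123) and without sh2-TUG1 replicate 2 (0.0553 and 0.0935), and that of TYMS also without sh2-TUG1 replicate 3 (0.0976). None of the 4 genes of this group was called in sh1-TUG1 by edgeR (1 lower at an unadjusted p under 0.05, and 1 lower with DESeq2). Over all genes, edgeR called 12.5% higher and 12.3% lower in sh1-TUG1.

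Of the 9 genes of mitotic entry, 6 were lower in sh2-TUG1 and 4 higher in sh1-TUG1 than in sh-Con, and all 9 were lower in sh2-TUG1 than in the sh1-TUG1 line. In that order the shares were 66.7%, 44.4% and 100%, against 21.9%, 12.5% and 21.7% of all genes. CDK1 (chr10:60778331-60794852, plus strand in GENCODE 29), the kinase that drives entry into mitosis, had 4.48, 5.71 and 5.01 CPM with sh-Con, 3.63, 3.78 and 5.25 CPM with sh1-TUG1 and 1.75, 1.68 and 2.02 CPM with sh2-TUG1. The sh2-TUG1 libraries lay far below the others, and CDK1 fell by 64.1%, more than any other member in that line (log2FC -1.48 ± 0.19, adjusted p = 0.00027). The sh1-TUG1 libraries overlapped sh-Con (log2FC -0.26 ± 0.19, adjusted p = 0.35). Of its cyclins, CCNA2 and CCNB1 were called lower in sh2-TUG1 and CCNB2 was not. CCNA2 (cyclin A2) measured 7.81, 7.87 and 9.03 CPM in the sh-Con libraries, 8.14, 8.16 and 11.3 CPM in those of sh1-TUG1 and 4.399, 5.03 and 4.28 CPM in those of sh2-TUG1. CCNB1 (cyclin B1) stood at 14.5, 12.7 and 15.8 CPM with sh-Con, 15.6, 14.3 and 17.96 CPM with sh1-TUG1 and 9.57, 10.2 and 10.2 CPM with sh2-TUG1. In both, every sh2-TUG1 library lay below every other library (log2FC -0.85 ± 0.14, adjusted p = 0.00107 and log2FC -0.53 ± 0.11, adjusted p = 0.00341). CCNB2 (cyclin B2) was at 4.15, 3.99 and 5.197 CPM in the sh-Con libraries, 7.0, 5.98 and 6.69 CPM in those of sh1-TUG1 and 4.83, 3.02 and 4.12 CPM in those of sh2-TUG1. It was higher in sh1-TUG1 (log2FC 0.56 ± 0.16, adjusted p = 0.0286) and did not pass the test in sh2-TUG1 (log2FC -0.16 ± 0.21, adjusted p = 0.576). Its call in sh1-TUG1 was lost without sh-Con replicate 1 or 2 or sh1-TUG1 replicate 1 or 3 (adjusted p from 0.0572 to 0.0929).

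FOXM1 (chr12:2857681-2877155, minus strand), a transcription factor of the mitosis genes, had 8.91, 7.22 and 9.46 CPM with sh-Con, 14.8, 14.6 and 13.6 CPM with sh1-TUG1 and 7.57, 7.36 and 9.304 CPM with sh2-TUG1. It was the member with the largest rise in sh1-TUG1, 1.68-fold and without overlap (log2FC 0.74 ± 0.12, adjusted p = 0.00163). Its sh2-TUG1 libraries overlapped sh-Con (log2FC -0.079 ± 0.15, adjusted p = 0.691). PLK1 (Polo-like kinase 1) measured 16.1, 14.4 and 15.9 CPM in the sh-Con libraries, 18.5, 19.97 and 23.3 CPM in those of sh1-TUG1 and 10.5, 11.3 and 10.8 CPM in those of sh2-TUG1. Its groups did not overlap, with sh1-TUG1 above sh-Con (log2FC 0.41 ± 0.10, adjusted p = 0.0141) and sh2-TUG1 below it (log2FC -0.52 ± 0.090, adjusted p = 0.00153). The call in sh1-TUG1 was lost without sh-Con replicate 2 (adjusted p = 0.0545) or sh1-TUG1 replicate 3 (0.0604). AURKA (Aurora kinase A) was higher in sh1-TUG1 (log2FC 0.50 ± 0.10, adjusted p = 0.00637) and at a log2FC of 0.11 ± 0.11 (adjusted p = 0.444) in sh2-TUG1.

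CDC25C, the phosphatase that activates CDK1, stood at 2.01, 1.42 and 2.73 CPM with sh-Con, 3.13, 2.98 and 3.21 CPM with sh1-TUG1 and 1.200, 1.11 and 0.907 CPM with sh2-TUG1. All sh2-TUG1 libraries lay below and all sh1-TUG1 libraries above those of sh-Con, but only the fall passed the test (log2FC -0.95 ± 0.29, adjusted p = 0.0241, against log2FC 0.59 ± 0.25, adjusted p = 0.112 in sh1-TUG1). CDKN3, a phosphatase that acts on CDK1 and CDK2, was at 3.08, 3.37 and 4.15 CPM in the sh-Con libraries, 3.895, 3.56 and 3.08 CPM in those of sh1-TUG1 and 1.75, 1.68 and 2.49 CPM in those of sh2-TUG1. It was lower in sh2-TUG1 without overlap (log2FC -0.84 ± 0.23, adjusted p = 0.0163). The calls of both in sh2-TUG1 were lost without sh-Con replicate 3 (adjusted p = 0.113 and 0.0667) or sh2-TUG1 replicate 2 (0.057 and 0.0573). That of CDC25C was lost also without sh2-TUG1 replicate 3 (0.0772) and that of CDKN3 also without sh2-TUG1 replicate 1 (0.057).

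Of the 11 genes of the kinetochore and checkpoint, 5 were lower in sh2-TUG1 and 2 higher in sh1-TUG1 than in sh-Con, and 9 were lower in sh2-TUG1 than in the sh1-TUG1 line. These shares, 45.5%, 18.2% and 81.8%, stand against 21.9%, 12.5% and 21.7% of all genes. AURKB (chr17:8204733-8210600, minus strand), the kinase that corrects faulty attachments of chromosomes to the spindle, had 2.93, 2.395 and 2.87 CPM with sh-Con, 3.43, 2.84 and 3.69 CPM with sh1-TUG1 and 0.892, 1.26 and 1.296 CPM with sh2-TUG1. UBE2C (chr20:45812576-45816957, plus strand), which helps to mark cyclin B for destruction, measured 2.41, 2.31 and 3.13 CPM in the sh-Con libraries, 2.900, 3.03 and 3.48 CPM in those of sh1-TUG1 and 0.923, 1.197 and 1.22 CPM in those of sh2-TUG1. In both genes the sh2-TUG1 libraries lay below all others, with a log2FC of -1.25 ± 0.23 (adjusted p = 0.00234) for AURKB and a log2FC of -1.23 ± 0.24 (adjusted p = 0.0027) for UBE2C. CENPF (chr1:214603195-214664588, plus strand), a large kinetochore protein, stood at 8.24, 5.26 and 7.23 CPM with sh-Con, 7.88, 8.14 and 8.65 CPM with sh1-TUG1 and 3.17, 2.84 and 4.12 CPM with sh2-TUG1. In sh2-TUG1 it fell without overlap (log2FC -1.03 ± 0.21, adjusted p = 0.00389). CENPE, the kinetochore motor, was at 1.77, 2.66 and 1.82 CPM in the sh-Con libraries, 2.49, 1.46 and 2.31 CPM in those of sh1-TUG1 and 0.646, 1.05 and 1.22 CPM in those of sh2-TUG1. TTK, a checkpoint kinase, had 1.16, 2.07 and 2.14 CPM with sh-Con, 1.201, 1.71 and 1.91 CPM with sh1-TUG1 and 0.954, 1.08 and 0.881 CPM with sh2-TUG1. Their sh2-TUG1 libraries lay below all others (log2FC -1.09 ± 0.30, adjusted p = 0.0148 and log2FC -0.89 ± 0.29, adjusted p = 0.0316). The call of CENPE was lost without sh-Con replicate 2 (adjusted p = 0.0583), and that of TTK without sh-Con replicate 2 or 3 or any single sh2-TUG1 library (0.0562 to 0.118).

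In sh1-TUG1, the 2 called kinetochore and checkpoint genes were CDC20 and BIRC5. CDC20, the activator of the anaphase-promoting complex, measured 8.15, 8.34 and 8.63 CPM in the sh-Con libraries, 10.6, 11.03 and 13.7 CPM in those of sh1-TUG1 and 7.32, 7.51 and 8.58 CPM in those of sh2-TUG1. BIRC5 (survivin), a partner of AURKB, stood at 6.89, 8.58 and 11.8 CPM with sh-Con, 13.1, 13.04 and 14.5 CPM with sh1-TUG1 and 6.92, 7.06 and 6.14 CPM with sh2-TUG1. In both genes sh1-TUG1 stood above all other libraries (log2FC 0.50 ± 0.12, adjusted p = 0.0162 and log2FC 0.57 ± 0.17, adjusted p = 0.0382). The sh2-TUG1 libraries overlapped sh-Con in both (log2FC -0.10 ± 0.12, adjusted p = 0.509 and log2FC -0.45 ± 0.19, adjusted p = 0.0828). The call of CDC20 was lost without sh1-TUG1 replicate 3 (adjusted p = 0.0681), and that of BIRC5 without any single library except sh-Con replicate 3 (0.0591 to 0.116). BUB1, a checkpoint kinase, was at 4.97, 6.68 and 6.08 CPM in the sh-Con libraries, 8.05, 7.28 and 8.25 CPM in those of sh1-TUG1 and 3.32, 4.22 and 4.92 CPM in those of sh2-TUG1, with no overlap between any of the groups. BUB1B, another checkpoint protein, had 2.72, 3.49 and 3.75 CPM with sh-Con, 3.93, 3.17 and 4.802 CPM with sh1-TUG1 and 3.02, 2.37 and 2.54 CPM with sh2-TUG1, and CENPA, the histone variant of centromeres, measured 1.495, 1.51 and 2.36 CPM in the sh-Con libraries, 2.402, 2.23 and 2.49 CPM in those of sh1-TUG1 and 1.42, 1.47 and 1.19 CPM in those of sh2-TUG1. In both, sh2-TUG1 lay below sh1-TUG1 without overlap while sh1-TUG1 overlapped sh-Con. By edgeR, BUB1, BUB1B and CENPA were called between the lines and in neither comparison with sh-Con (log2FC -0.92 ± 0.17, adjusted p = 0.0011, log2FC -0.59 ± 0.21, adjusted p = 0.0384 and log2FC -0.81 ± 0.23, adjusted p = 0.0142). The call of BUB1B was lost without any single sh1-TUG1 or sh2-TUG1 library except sh1-TUG1 replicate 2 and sh2-TUG1 replicate 1 (adjusted p from 0.0747 to 0.17), and that of CENPA without sh2-TUG1 replicate 3 (0.0529). DESeq2 called 7 genes of this group lower in sh2-TUG1 (5 in edgeR) and 3 higher in sh1-TUG1 (2 in edgeR). NDC80 was called in no comparison by edgeR (log2FC -0.27 ± 0.33, adjusted p = 0.545 between the lines).

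Of the 4 genes of the spindle and cytokinesis, 0 were called in sh2-TUG1 against sh-Con by edgeR (2 lower at an unadjusted p under 0.05, and 1 lower with DESeq2), 1 was higher in sh1-TUG1, and all 4 were lower in sh2-TUG1 than in the sh1-TUG1 line. Of all genes, 21.9% were lower in sh2-TUG1, 12.5% higher in sh1-TUG1 and 21.7% lower between the lines. KIF20A (chr5:138178719-138187715, plus strand), a kinesin of the central spindle, stood at 2.26, 2.19 and 2.22 CPM with sh-Con, 3.93, 3.12 and 3.95 CPM with sh1-TUG1 and 1.69, 1.17 and 1.94 CPM with sh2-TUG1. The groups did not overlap, and the rise in sh1-TUG1 was 1.65-fold (log2FC 0.72 ± 0.19, adjusted p = 0.0199). This call was lost without sh-Con replicate 2 or 3 or sh1-TUG1 replicate 1 or 3 (adjusted p from 0.054 to 0.0797). KIF11, the motor that pushes spindle poles apart, was at 3.97, 3.49 and 3.94 CPM in the sh-Con libraries, 4.07, 3.39 and 4.59 CPM in those of sh1-TUG1 and 2.95, 1.62 and 2.695 CPM in those of sh2-TUG1. KIF23, which acts in cytokinesis, had 3.57, 3.19 and 3.75 CPM with sh-Con, 4.42, 3.36 and 4.99 CPM with sh1-TUG1 and 2.400, 2.54 and 2.62 CPM with sh2-TUG1. In both genes the sh2-TUG1 libraries were the lowest, and both were lower in sh2-TUG1 than in the sh1-TUG1 line (log2FC -0.73 ± 0.23, adjusted p = 0.0213 and log2FC -0.76 ± 0.18, adjusted p = 0.00628). The call of KIF11 was lost without sh1-TUG1 replicate 1 or 3 or sh2-TUG1 replicate 2 (adjusted p = 0.051, 0.0843 and 0.0655). TPX2, which nucleates spindle microtubules, differed less (log2FC -0.38 ± 0.086, adjusted p = 0.00427).

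The 3 genes of chromosome structure were all DEGs downwards in sh2-TUG1, against 8.97% of all genes. TOP2A (chr17:40388516-40417950, minus strand), the topoisomerase that untangles replicated DNA, measured 18.97, 17.9 and 20.5 CPM in the sh-Con libraries, 23.02, 24.1 and 26.7 CPM in those of sh1-TUG1 and 7.91, 7.39 and 9.36 CPM in those of sh2-TUG1. Its groups did not overlap, with sh2-TUG1 57% below sh-Con (log2FC -1.22 ± 0.11, adjusted p = 3.13e-05) and sh1-TUG1 28.6% above it (log2FC 0.36 ± 0.083, adjusted p = 0.0112). The latter call was lost without sh1-TUG1 replicate 3 (adjusted p = 0.0531). MKI67 (chr10:128096659-128126385, minus strand), which encodes the proliferation antigen Ki-67, stood at 6.62, 5.62 and 6.75 CPM with sh-Con, 6.18, 8.604 and 10.3 CPM with sh1-TUG1 and 2.95, 2.69 and 3.06 CPM with sh2-TUG1. HMGB2, a chromatin protein, was at 14.3, 16.2 and 15.5 CPM in the sh-Con libraries, 13.9, 13.7 and 14.4 CPM in those of sh1-TUG1 and 7.91, 7.51 and 8.73 CPM in those of sh2-TUG1. In both, the sh2-TUG1 libraries lay below all others (log2FC -1.13 ± 0.16, adjusted p = 0.000518 and log2FC -0.93 ± 0.10, adjusted p = 0.000108). The sh1-TUG1 libraries overlapped sh-Con in both (log2FC 0.40 ± 0.18, adjusted p = 0.145 and log2FC -0.13 ± 0.084, adjusted p = 0.293).

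**Figure D4:**
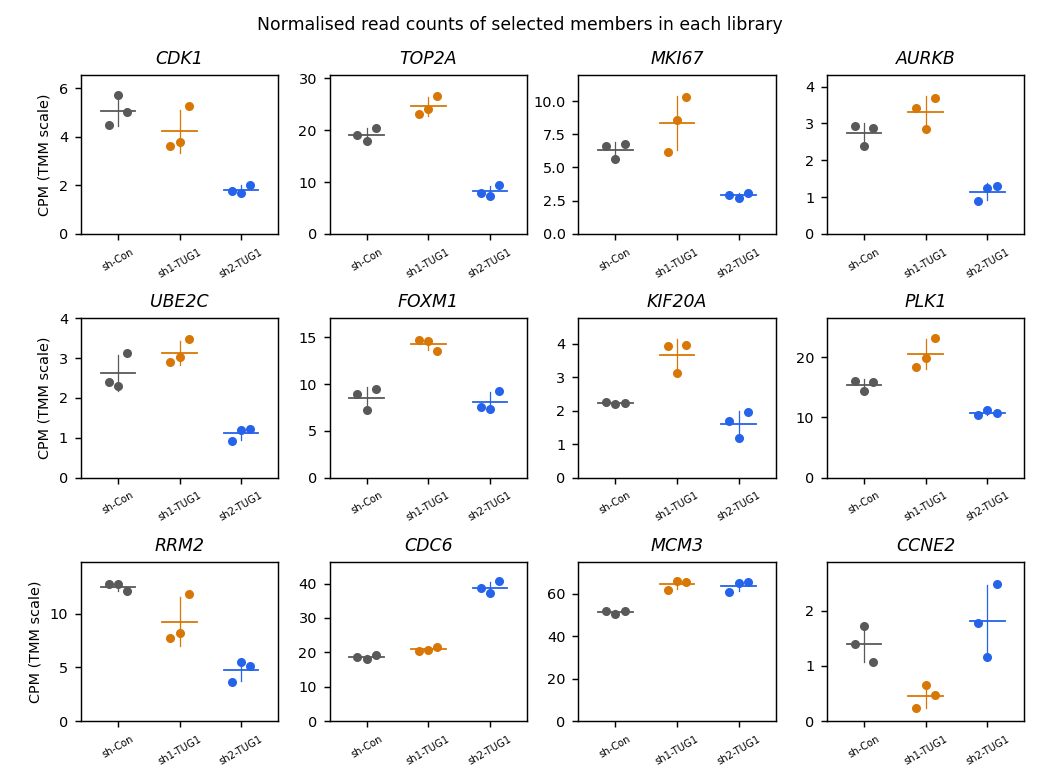
Level in CPM (y axis, TMM scale common to all libraries, starting at 0) of 12 members in each of the 9 libraries. Points are libraries, horizontal bars are means and vertical lines are ± 1 SD (n = 3). CDK1, TOP2A, MKI67, AURKB, UBE2C and RRM2 are lowest in sh2-TUG1, FOXM1, KIF20A and PLK1 are highest in sh1-TUG1, CDC6 is high in sh2-TUG1 alone, MCM3 is higher in both lines and CCNE2 is lowest in sh1-TUG1.

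The kit used does not mark strand, and exons of 15 members overlap exons of a gene on the other strand in GENCODE 29. Reads from the shared stretches cannot be told apart from those of the partner, and the length of these stretches was not measured. The 15 members include CDK4 (TSPAN31), CCND1 (LTO1), CCNA2 (EXOSC9), FOXM1 (ITFG2), KIF20A (BRD8 and CDC23), CDC25C (FAM53C) and PLK1 (ERN2). Also among them are GINS2 (GSE1) and the scarce CCNE2 (INTS8 and AC087752.4). Exons of 4 members, CHEK1, RRM2, BUB1B and CENPA, overlap another gene on the same strand. A further source of doubt is that 11 members, among them PCNA, RRM2, UBE2C, CCNB2 and MKI67, have a pseudogene that carries their name, so their counts are uncertain to the extent that reads were shared.

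Other cell cycle genes were counted in 3 further lists. Of 60 other mitosis genes, 57 were tested in sh2-TUG1, with 15 lower and 3 higher (median -0.37), and 58 in sh1-TUG1, with 6 higher and 0 lower (edgeR, 1 lower at an unadjusted p under 0.05, 0 with DESeq2, median 0.21). These are 26.3% lower and 5.26% higher in sh2-TUG1 (21.9% and 21.6% of all genes) and 10.3% higher in sh1-TUG1 (12.5%). Among called genes, the largest changes in sh2-TUG1 were falls of NCAPH (log2FC -1.29 ± 0.25, adjusted p = 0.00274), a condensin subunit, HMMR (log2FC -1.09 ± 0.22, adjusted p = 0.0033), a spindle protein, and KIF4A (log2FC -1.09 ± 0.20, adjusted p = 0.00226), a chromosome-bound kinesin. Among called genes in sh1-TUG1, the largest changes were rises of GTSE1 (log2FC 0.64 ± 0.20, adjusted p = 0.0433), CDCA8 (log2FC 0.61 ± 0.19, adjusted p = 0.0394), a partner of AURKB, and TACC3 (log2FC 0.61 ± 0.15, adjusted p = 0.0162), a spindle protein. The call of GTSE1 was lost without any single library except sh1-TUG1 replicate 1 (adjusted p from 0.0738 to 0.141), that of CDCA8 without any except sh-Con replicate 3 (0.0656 to 0.113) and that of TACC3 without sh1-TUG1 replicate 1 or 3 (0.0536 and 0.0542). ECT2, which drives cytokinesis, was instead higher in sh2-TUG1 (log2FC 0.91 ± 0.078, adjusted p = 2.09e-05, named after its value was seen). Its call was not checked with single libraries left out.

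Of 40 other replication genes, 38 were tested, with 8 lower and 4 higher in sh2-TUG1 (median -0.14) and 4 higher and 1 lower in sh1-TUG1 (median 0.094). Against sh-Con, the shares were 21.1% lower and 10.5% higher in sh2-TUG1 (21.9% and 21.6% of all genes). In sh1-TUG1 they were 10.5% higher and 2.63% lower (12.5% and 12.3%), so none of these exceeded that of all genes. Between the lines, 12 of 37 tested were lower and 1 higher in sh2-TUG1 (median -0.22). Those are 32.4% and 2.7%, against 21.7% and 21.0% of all genes. UHRF1, which keeps DNA methylation through replication, had 4.52, 4.08 and 5.22 CPM with sh-Con, 3.93, 4.96 and 6.29 CPM with sh1-TUG1 and 1.69, 1.56 and 1.503 CPM with sh2-TUG1. All its sh2-TUG1 libraries lay below the others (log2FC -1.54 ± 0.20, adjusted p = 0.000238). RFC3 and RFC1 are subunits of the same PCNA-loading complex and moved apart in sh2-TUG1, RFC3 with a log2FC of -1.09 ± 0.32 (adjusted p = 0.0202) and RFC1 with a log2FC of 0.62 ± 0.048 (adjusted p = 1.11e-05). The call of RFC3 was lost without sh-Con replicate 3 (adjusted p = 0.0813) or sh2-TUG1 replicate 1 or 3 (0.0746 and 0.0623). The called genes of largest change in sh1-TUG1 were ORC6 (log2FC 0.42 ± 0.11, adjusted p = 0.022), RECQL4 (log2FC 0.42 ± 0.12, adjusted p = 0.0258) and ORC5 (log2FC -0.29 ± 0.076, adjusted p = 0.0214). These calls also rested on single libraries. That of ORC6 was lost without sh-Con replicate 3 or any sh1-TUG1 library (adjusted p from 0.0581 to 0.0743), that of RECQL4 without any single library except sh1-TUG1 replicate 1 (0.0502 to 0.0992) and that of ORC5 without sh-Con replicate 3 or sh1-TUG1 replicate 1 or 2 (0.0713 to 0.0738).

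Of 31 genes of the brakes on the cycle and of the E2F and RB network, 28 were tested, with 6 higher and 4 lower in sh2-TUG1 (median 0.061) and 3 higher and 3 lower in sh1-TUG1 (median 0.057). These shares, 21.4% higher and 14.3% lower in sh2-TUG1 and 10.7% each way in sh1-TUG1, did not exceed those of all genes (21.6%, 21.9%, 12.5% and 12.3%). MYBL2 (B-MYB, which activates mitosis genes) measured 8.69, 6.86 and 7.26 CPM in the sh-Con libraries, 8.699, 10.9 and 12.1 CPM in those of sh1-TUG1 and 3.85, 4.28 and 5.39 CPM in those of sh2-TUG1. It fell in sh2-TUG1 (log2FC -0.75 ± 0.17, adjusted p = 0.00623) and was called higher in sh1-TUG1 (log2FC 0.48 ± 0.15, adjusted p = 0.043). The latter call did not hold without sh-Con replicate 2 or 3 or sh1-TUG1 replicate 2 or 3 (adjusted p from 0.114 to 0.164). LIN54, the subunit of the DREAM and B-MYB complexes that binds CHR, stood at 36.3, 39.5 and 34.6 CPM with sh-Con, 23.4, 28.02 and 29.7 CPM with sh1-TUG1 and 24.4, 20.2 and 25.3 CPM with sh2-TUG1. It was lower in both lines without overlap with sh-Con (log2FC -0.45 ± 0.092, adjusted p = 0.0068 in sh1-TUG1 and log2FC -0.66 ± 0.092, adjusted p = 0.000405 in the other line). TFDP1 and TFDP2, the partners of E2F proteins, were higher in both, with a log2FC of 0.55 ± 0.058 (adjusted p = 0.000149) and a log2FC of 0.49 ± 0.064 (adjusted p = 0.000562) in sh1-TUG1. In sh2-TUG1 the values were a log2FC of 0.28 ± 0.056 (adjusted p = 0.00316) and a log2FC of 0.34 ± 0.060 (adjusted p = 0.00153). The calls of TFDP1 and TFDP2 in sh2-TUG1 and of LIN54 in sh1-TUG1 were not checked with single libraries left out. CHEK2, a DNA damage kinase, was lower in sh2-TUG1 (log2FC -0.62 ± 0.17, adjusted p = 0.0152), a call lost without sh-Con replicate 2 or sh2-TUG1 replicate 2 (adjusted p = 0.0565 and 0.0549).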

How the data were processed

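RNA was sequenced from 9 HepG2 libraries, 3 for each line (sh-Con, sh1-TUG1, sh2-TUG1), with a NEBNext Ultra RNA kit. The deposited read counts per gene were raw whole numbers, in 1 table per knockdown line with the same sh-Con counts in both. HISAT2, StringTie and GRCh38 are named in the submitters' processing notes, without versions, and the counting tool, annotation and gene filter are not given in the sources used here. The tables hold no gene with under 140 counts over their 6 libraries, so genes silent in both groups were not tested. The FPKM values, FDR (adjusted p-values) and log2 fold changes that the authors deposited beside the counts were not used.

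Counts were tested with edgeR 4.0.16 (R 4.3.3): filterByExpr, TMM normalisation, glmQLFit and glmQLFTest, 2-sided, with 6 libraries for each line against sh-Con and all 9 over the 12854 shared genes for sh2-TUG1 against sh1-TUG1. P-values were adjusted over all genes by Benjamini-Hochberg. Library means of log2 CPM used a prior count of 2. The test was checked on simulated data. Totals were 33049003 to 39387125 counts, and precision for scarce transcripts is limited by their counts. Libraries of a group differed beyond sampling noise (chi-squared per degree of freedom 6.41 to 25.8 over 10772 genes), so none was counted as a duplicate. Alternatives were RLE or no scaling factors, other filters, DESeq2 1.42.0, a replicate block, leaving out each library, 1 fit of all libraries and a test against a fold change of 1.5.

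The members and gene lists were chosen with earlier results of these data known. Per-library values were given for members that were DEGs in any comparison and for the 2 of lowest p in each role group. Those of MCM3 and PCNA were given outside this rule. For the other lists the 3 called genes of largest fold change against sh-Con were named (ECT2 was added after its value was seen). Exons and positions came from GENCODE 29 and promoter windows from RefSeq, both GRCh38.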

Additional observations from a re-analysis of the deposited data

Results flagged for a closer look

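For 40 of the 51 members the effect of the knockdown line on the transcript differed between sh1-TUG1 and sh2-TUG1 by the direct test of sh2-TUG1 against sh1-TUG1 (edgeR, adjusted p under 0.05, 3 libraries per line). By the same test, 21.0% of 12854 genes were called higher and 21.7% lower in sh2-TUG1. The values that follow are the log2 fold changes of that comparison. Each line is 1 stable line with its own shRNA, so the hairpin and the line cannot be told apart.

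The 2 members that were higher in sh2-TUG1 act before or at the start of S phase, with 1.98 for CCNE2 and 0.892 for CDC6. In G1 and its control, CCND1 stood at -0.687 and CDC25A at -0.796. In licensing and at the fork the values were -0.744 for CDT1, -0.335 for GMNN, -1.18 for GINS2, -0.371 for MCM2, -0.519 for MCM4, -0.883 for MCM5, -0.56 for MCM6 and -0.274 for PCNA. The call of MCM6 in this comparison was lost without sh1-TUG1 replicate 3 (adjusted p = 0.06). In nucleotide supply they were -0.961 for RRM2, -0.23 for TYMS and -0.754 for TK1.

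All 9 genes of mitotic entry were lower in sh2-TUG1, with -1.21 for CDK1, -1.01 for CCNA2, -0.675 for CCNB1, -0.716 for CCNB2, -1.54 for CDC25C, -0.822 for FOXM1, -0.926 for PLK1, -0.389 for AURKA and -0.824 for CDKN3. At the kinetochore and checkpoint the values were -1.52 for AURKB, -1.01 for BIRC5, -0.916 for BUB1, -0.588 for BUB1B, -0.808 for CENPA, -1.09 for CENPE, -1.28 for CENPF, -0.596 for CDC20 and -1.49 for UBE2C. In the spindle and cytokinesis group KIF11 stood at -0.729, KIF20A at -1.19, KIF23 at -0.755 and TPX2 at -0.379. Among the genes of chromosome structure, TOP2A stood at -1.58, HMGB2 at -0.796 and MKI67 at -1.52.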

How the results depend on the processing

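Neither the S phase median nor the mitosis median changed sign under any alternative that recomputed it. The test against a fold change of 1.5 did not, and medians of the other lists were not recomputed. No called log2 fold change of a member changed sign under any alternative. Counts have no sign to change, so their values are given below. Of the 14 member calls in sh1-TUG1, 0 were kept under every alternative and 6 (CDK4, CCNE2, E2F1, MCM3, FOXM1 and AURKA) under every one but the test against a fold change of 1.5. Of 26 calls in sh2-TUG1 the numbers were 7 and 21, and of 40 between the lines 10 and 34. That test, which asks more by construction, left 0 members past a fold change of 1.5 in sh1-TUG1 (3 in the test used), 7 in sh2-TUG1 (20) and 10 between the lines (32). Scaling by library size alone gave 5 such members in sh1-TUG1 and 7 other cell cycle genes called higher between the lines (11 with TMM), and DESeq2 called 2 members lower in sh1-TUG1 (1 in edgeR). The cause was not tested. Without genes of more than 1 phase, the S phase mean minus the mitosis mean was 1.26 in sh-Con, 1.02 in sh1-TUG1 and 1.63 in sh2-TUG1.

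Leaving out 1 library at a time, the mitosis median ran from 0.196 to 0.379 in sh1-TUG1, -0.651 to -0.494 in sh2-TUG1 and -0.941 to -0.824 between the lines, and the S phase median from 0.054 to 0.166, -0.291 to -0.144 and -0.401 to -0.281. Members called higher numbered 6 to 12 in sh1-TUG1 (13 with all libraries, 6 without sh1-TUG1 replicate 3), 4 to 6 in sh2-TUG1 and 2 to 2 between the lines. Members called lower numbered 1 to 2, 18 to 24 and 33 to 39 in the same order, and members past a fold change of 1.5 numbered 2 to 7, 15 to 22 and 27 to 33. Other cell cycle genes called higher numbered 4 to 9 (13 with all libraries), 10 to 13 and 7 to 12, and those called lower 2 to 5, 19 to 27 and 26 to 51 (48 with all libraries, 26 without sh1-TUG1 replicate 3).

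The labels number the libraries of each group 1 to 3 without stating a shared batch, and deviations of same-numbered libraries correlated at -0.194 to 0.0499 over 9 pairs. None of the 9 libraries was closest to its own number in both other groups (0), so the numbers were not taken as pairs. With the replicate block, 13 members were called higher and 1 lower in the sh1-TUG1 line, 4 and 21 in sh2-TUG1, and 2 and 37 between the lines. Of the member calls it ended only TTK in sh2-TUG1 (adjusted p = 0.0555) and BUB1B between the lines (0.0649), and of the other named genes GTSE1 (0.0836), CDCA8 (0.0627) and MYBL2 (0.0732) in sh1-TUG1. Depth limits what can be seen of scarce members such as CCNE2 (8 to 96 counts per library) and CDC45 (22 to 68).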

Other observations

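Of the 28 tested genes of the brakes and the E2F and RB network, 6 had more RNA in sh2-TUG1 than in the sh1-TUG1 line and 6 had less, or 21.4% each way (21.0% and 21.7% of all genes), with a median log2 fold change of -0.020. The genes of this paragraph were named after their values were seen, and their single calls were not checked under the alternatives. CDKN2B (p15, which inhibits CDK4 and CDK6) was lower in sh1-TUG1 (log2 fold change -0.27 ± 0.075, adjusted p = 0.0277) and higher in sh2-TUG1 (0.35 ± 0.071, adjusted p = 0.00322) than in sh-Con. WEE1, the kinase that inhibits CDK1, was higher in sh2-TUG1 (0.37 ± 0.054, adjusted p = 0.000539) and did not pass the test in sh1-TUG1 (-0.15 ± 0.057, adjusted p = 0.0846). CDKN1A (p21) was lower in sh1-TUG1 (-0.21 ± 0.042, adjusted p = 0.00545). With sh2-TUG1 it was at -0.0090 ± 0.048 (adjusted p = 0.897). FBXO5, an inhibitor of the anaphase-promoting complex, was higher in sh2-TUG1 (0.59 ± 0.10, adjusted p = 0.00151). FBXO5 belongs to the list of other mitosis genes, of which 4 were higher and 30 lower between the lines (7.02% and 52.6%, against 21.0% and 21.7% of all genes). In that comparison the genes named so far were higher in sh2-TUG1, by 0.62 ± 0.070 for CDKN2B, 0.52 ± 0.052 for WEE1, 0.20 ± 0.042 for CDKN1A and 0.44 ± 0.098 for FBXO5 (adjusted p from 1.33e-05 for WEE1 to 0.00353 for FBXO5). Others of the network were lower in sh2-TUG1 there, among them CDKN2C (p18), an inhibitor of CDK4 and CDK6 (-0.72 ± 0.25, adjusted p = 0.0367), and PKMYT1, a kinase that inhibits CDK1 (-0.76 ± 0.25, adjusted p = 0.0302).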
